A study of Mus musculus with 8 samples.

Results

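Mixed macrophage and CD8 T droplets are cell barcodes that carry the RNA of a CD8 T cell and of a macrophage together. They were chosen by measured counts: at least 2 unique molecular identifiers (UMIs) of Cd3d, Cd3e and Cd3g summed, at least 2 UMIs of Cd8a and Cd8b1 summed, and at least 100 UMIs of C1qa, C1qb, C1qc, Apoe and Lyz2 per 10000 UMIs of the barcode. The rule found 1436 of 37757 barcodes, namely 113 in control 1, 575 in control 2, 545 in LNP-Sirpa 1 and 203 in LNP-Sirpa 2. Since these 10 genes selected the droplets, their levels are given as a description and were not tested against other droplets. The libraries hold CD45+ immune cells sorted from tumours of the mouse colon carcinoma line MC38, grown in wild-type mice, in a control group and a group treated with LNP-Sirpa (2 libraries each), which by the series title removes the SIRPα protein in tumours. The labels give no age or strain of the mice, do not say what the controls received, and put all libraries in 1 batch. Whether the replicates are different mice is not stated, and a p-value therefore reflects only how much these libraries vary, which may be technical. Which of chance capture of 2 cells in a droplet, carried RNA, and attached or engulfed cells gave a mixed droplet was not tested.

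CD8 T cells recognise peptides held by MHC class I molecules through the T cell receptor and its CD3 chains, and kill target cells with perforin and granzymes. Macrophages engulf dying cells and debris, make complement C1q, and present antigen to T cells. Sirpa encodes SIRPα, a macrophage receptor that holds back engulfment when it binds CD47 on another cell. In tumours, macrophages lie close to CD8 T cells and respond to the interferon gamma that T cells release.

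The 4 libraries held from 7511 to 10890 barcodes and from 68654004 to 90789729 UMIs, and no barcode had fewer than 1000 UMIs. Every mixed droplet passed the usual filter on cells, and their depth ran from 1139 to 118297 UMIs. Barcodes are named by running numbers, so 8 of the 1428 names of mixed droplets recur in another library. For comparison, CD8-only droplets met the same Cd3 and Cd8 minimum with the macrophage genes under 100 per 10000 (90, 394, 866 and 561 in control 1, control 2, LNP-Sirpa 1 and LNP-Sirpa 2, the order kept below). Macrophage-only droplets reached 100 per 10000 without a UMI of the 5 Cd3 and Cd8 genes (4452, 6120, 2381 and 3071). Levels of genes are in CPM: UMIs summed per library and kind of droplet, scaled to 1e6 UMIs in all. Sirpa, the gene the treatment is named for, stood at 381, 356, 295 and 278 CPM in mixed droplets, with both LNP-Sirpa libraries below both controls, and the difference did not pass the test described below (log2 change -0.29 ± 0.17, adjusted p = 0.657 with edgeR). Macrophage-only droplets had 543, 554, 483 and 339.8 CPM. A level of RNA does not measure the protein.

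Mixed droplets held about as many T cell transcripts as CD8-only droplets, and more macrophage transcripts than a macrophage-only droplet. The T cell side was read from 14 genes outside the rule, among them Trac, Lck and Thy1, which encode a receptor chain, a receptor kinase and a surface glycoprotein of T cells. Summed over these genes, the median mixed droplet held 40, 42, 49 and 29 UMIs. CD8-only droplets held 46, 43, 46 and 29, so the ratio of the medians lay between 0.87 and 1.07 in the 4 libraries. Macrophage-only droplets held a median of 0, 0, 1 and 0 UMIs of the same genes. The macrophage side was read from 14 further genes outside the rule, among them Csf1r, the receptor for the growth factor of macrophages, Cd68 and Mrc1. The median mixed droplet held 163, 156, 192 and 177 UMIs of these. Macrophage-only droplets held 92, 92, 85 and 101, and CD8-only droplets 14.5, 14, 14 and 11. The excess over macrophage-only droplets was from 1.70 to 2.26 times. Per 10000 UMIs, however, mixed droplets held a median of 94.2, 107.0, 106.3 and 107.1, and macrophage-only droplets 128.6, 150.7, 144.3 and 134.5. The rule sets its macrophage threshold per 10000 UMIs, so a deeper droplet needs more macrophage UMIs to meet it. Mixed droplets were deeper, and CD8-only droplets met the same Cd3 and Cd8 minimum. The part of the rule in these levels was not tested. The marks here were the lower 10% point of CD8-only droplets for T cell genes and that of macrophage-only droplets for macrophage genes. Both were reached by 77.0%, 81.6%, 88.1% and 85.7% of mixed droplets. The macrophage mark alone was reached by 100%, 97.0%, 98.7% and 98.5%. The T cell mark alone was reached by 77.0%, 82.6%, 88.3% and 86.2%, and all but the lowest 10% of CD8-only droplets reach it by definition. The rule itself asks for both kinds of RNA, which favours reaching both marks. The markers Cd8a, Cd3g, Ifng, Pdcd1, C1qa and Lyz2 were all detected in the mixed droplets of every library, and Ifng and Pdcd1 played no part in the rule.

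**Figure D1:**
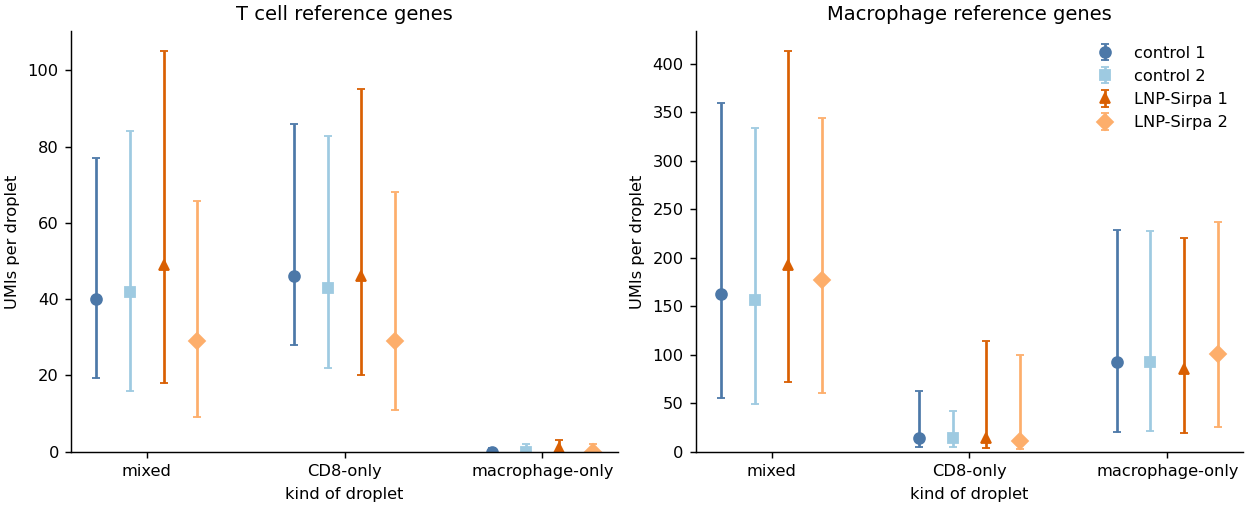
UMIs per droplet (vertical axis) of the 14 T cell reference genes (left) and the 14 macrophage reference genes (right) in mixed, CD8-only and macrophage-only droplets of each library. Points are medians and bars run from the 10% to the 90% point over droplets, not over libraries; mixed droplets lie close to CD8-only droplets on the left and lie above macrophage-only droplets on the right.

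Mixed droplets were also the deepest of the 3 kinds. Their median was 17202, 15096, 18266 and 15877 UMIs, against 7265.5, 6494.5, 7192.5 and 6262 in CD8-only and 7179, 6025, 5823 and 7705 in macrophage-only droplets. The median of mixed droplets was 1.19, 1.21, 1.40 and 1.14 times the sum of the other medians. The definitions bear on this. A mixed droplet needs a fixed number of Cd3 and Cd8 UMIs, which favours deep barcodes. CD8-only droplets need the same number, and mixed droplets were 2.37, 2.32, 2.54 and 2.54 times as deep as CD8-only droplets. A macrophage-only droplet must have no Cd3 or Cd8 UMI, which favours shallow barcodes. The part of these definitions in the depths was not tested. They held a median of 4239, 3783, 4306 and 3718 genes. The number at the end of a barcode's name, which in this kit's naming counts the beads merged into a cell, averaged 2.17, 2.19, 2.08 and 2.17 in mixed droplets. It averaged 1.79, 1.80, 1.99 and 1.90 in CD8-only and 2.04, 2.03, 1.95 and 1.94 in macrophage-only droplets, so mixed droplets had the highest mean in each library. Mitochondrial RNA made up a median of 0.665%, 0.621%, 0.742% and 0.556% of UMIs, near the 0.678%, 0.657%, 0.717% and 0.480% of macrophage-only droplets and above the 0.254%, 0.320%, 0.349% and 0.274% of CD8-only droplets.

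The macrophage level of droplets with Cd3 and Cd8 was spread over a wide range, with few droplets just below the threshold and no gap there. From 0 to 25 per 10000 lay 18.7%, 13.8%, 33.7% and 45.2% of these droplets. From 75 to 100 lay 4.93%, 4.33%, 7.94% and 5.37%, and from 200 to 300 lay 23.6%, 23.8%, 10.1% and 7.72%. The bins differ in width, and the bin from 75 to 100 held only 10 and 42 droplets in the controls. Droplets of the LNP-Sirpa libraries gathered at the low end, and those of the controls were more even. In control 2 the T cell reference UMIs per droplet went from 48.5 at 0 to 25 per 10000 to 45 at 200 to 300, while the macrophage reference UMIs went from 12 to 168 and the median depth from 6930.5 to 15495. Just outside the threshold, at 90 to 100 per 10000, lay 82 droplets with a median of 13180 UMIs, 43.5 T cell and 101.5 macrophage reference UMIs. Just inside, at 100 to 110, lay 82 droplets with 15406.5, 47 and 103. In LNP-Sirpa 1 and LNP-Sirpa 2, droplets at 75 to 100 per 10000 already held 105.5 and 126 macrophage reference UMIs at a depth of 15557 and 14461, against 53.5 and 29.5 at a depth of 12105 and 8105.5 in the controls. In the LNP-Sirpa libraries, CD8-only droplets near the threshold thus held more macrophage reference UMIs than the median macrophage-only droplet (85 and 101).

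**Figure D2:**
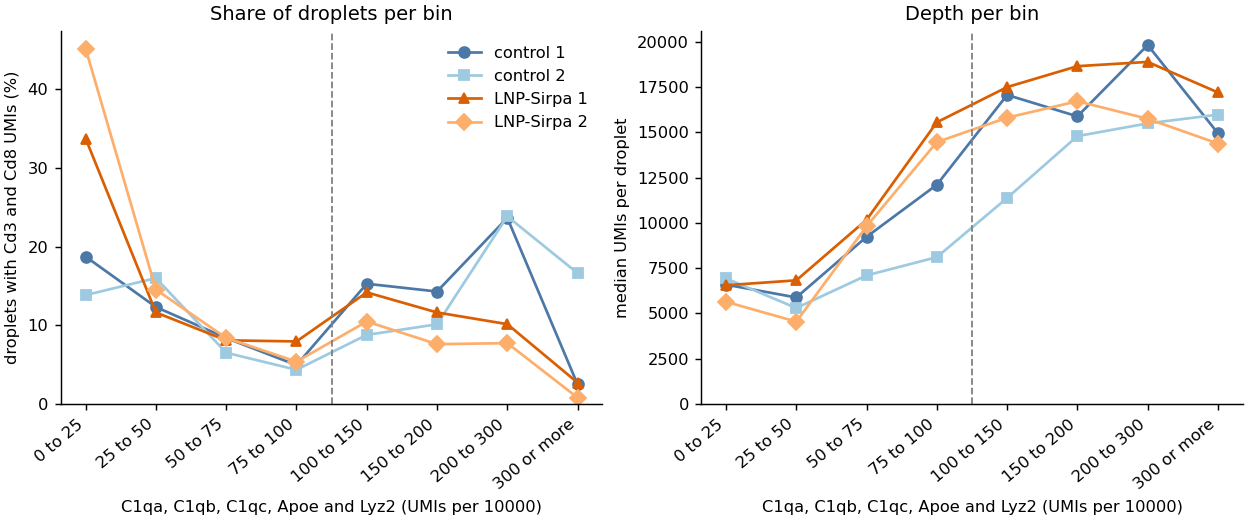
Droplets with at least 2 Cd3 and 2 Cd8 UMIs, binned by the level of the 5 macrophage genes of the rule (horizontal axis, UMIs per 10000; bins of unequal width). The left panel gives the percent of each library's droplets per bin and the right panel their median UMIs; the dashed line is the threshold of 100, beyond which the control libraries rise to 23.6% and 23.8% at 200 to 300 and the LNP-Sirpa libraries to 10.1% and 7.72%.

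Among droplets with Cd3 and Cd8, the mixed share was lower in the LNP-Sirpa than in the control libraries. It was 55.7% of 203 droplets in control 1 (95% Wilson interval 48.8 to 62.3, which covers counting error only), 59.3% of 969 in control 2 (56.2 to 62.4), 38.6% of 1411 in LNP-Sirpa 1 (36.1 to 41.2) and 26.6% of 764 in LNP-Sirpa 2 (23.6 to 29.8). The groups did not overlap: 57.5% ± 2.60 in control and 32.6% ± 8.52 in LNP-Sirpa (SD, n = 2 each), a difference of -24.9 percentage points. An exact two-sided permutation test gave p = 0.3333, the smallest that 2 libraries against 2 can give. The difference moved under some rules and not under others. It was -22.1 points with the macrophage genes at 50 per 10000 and -22.6 at 200. With at least 3 Cd3 and 3 Cd8 UMIs it was -25.3. With C1qa, C1qb and C1qc alone at 30 per 10000 it was -22.4. After every barcode was thinned to 2000 UMIs, which left out 1143, 1566, 1782 and 1427 shallower barcodes, the shares were 26.2% of 84, 31.5% of 356, 19.2% of 574 and 8.57% of 315 droplets, a difference of -15.0 points. In macrophage-only droplets the 5 genes of the rule had a median of 248, 308, 196 and 197 per 10000, so the threshold lay closer to an LNP-Sirpa macrophage than to a control one. With the 14 macrophage reference genes at 50 per 10000 in their place, a choice made after the data were seen, the shares were 59.1%, 60.6%, 52.6% and 43.7%, and the difference shrank to -11.7 points.

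As a share of all barcodes, mixed droplets did not separate the groups: 1.504%, 5.28%, 5.27% and 2.25%, or 3.39% ± 2.67 in control and 3.76% ± 2.13 in LNP-Sirpa (SD, n = 2 each; exact two-sided permutation test, p = 1). The highest and the lowest value were both from control libraries. The kinds of cell that can mix differed between the groups in opposite ways. Barcodes with the macrophage genes at the threshold made up 69.2%, 76.2%, 43.8% and 48.9%, and droplets with Cd3 and Cd8 made up 2.70%, 8.90%, 13.6% and 8.48%. Counted among barcodes at the macrophage threshold, mixed droplets were 2.17%, 6.93%, 12.03% and 4.61%. Without control 1 the difference in the share of all barcodes was -1.52 points and without LNP-Sirpa 1 it was -1.14, against 2.26 without control 2 and 1.87 without LNP-Sirpa 2.

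Macrophage RNA was also common in droplets of CD4 T cells and occurred in NK cell droplets. Droplets with at least 2 Cd3 and 2 Cd4 UMIs and no Cd8 reached the macrophage threshold in 51.4% of 72, 64.7% of 136, 33.8% of 284 and 33.1% of 145. These shares were close to those of CD8 droplets and likewise lower in both LNP-Sirpa libraries. NK cell droplets (Ncr1 and Klrb1c, with no Cd3 or Cd8) reached it in 23.8% of 101, 41.4% of 58 and 19.6% of 97 in control 1, control 2 and LNP-Sirpa 1; LNP-Sirpa 2 had only 9 NK droplets. CD4 droplets that reached the threshold were deeper too, with a median of 17785, 12932.5, 15079.5 and 15449 UMIs against 6084, 5120, 4870.5 and 5514 in those below it.

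Genes above both single kinds in every library, or below both in every library, were few. Of 2789 genes with at least 50 CPM in mixed droplets, 1350 (48.4%) lay between both single kinds in all 4 libraries. Above both in all 4 lay 46 (1.65%) and below both 43 (1.54%). The rest changed position between libraries, so each of them lay outside the range of the single kinds in some library. None of the 46 exceeded the higher single kind by over 1.5 times on average. Jarid2, a partner of the Polycomb complex that silences genes, led them with 1076, 664, 773 and 826 CPM in mixed droplets. It had 489, 523, 492 and 430.3 CPM in CD8-only and 629, 515, 566 and 556 CPM in macrophage-only droplets, a mean log2 excess of 0.53 over the higher kind. The next were Ppp6r1 (0.30) and Taf10 (0.28), which encode a phosphatase subunit and a part of the basal transcription machinery. Ubl3, Cnot6, Ndufa3, Eif3f, Akt2, Hnrnpa0 and Dazap1 followed with 0.21 to 0.15. Taken as a blend of both single kinds, the T cell part of the RNA was 38.0%, 41.7%, 51.0% and 42.2% by the T cell reference genes. By the macrophage reference genes it was 33.0%, 34.7%, 36.7% and 30.2%, lower in every library.

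Most cytotoxic transcripts of mixed droplets were close to those of CD8-only droplets once set against T cell RNA. Levels here are UMIs per 1000 UMIs of the T cell reference genes, for 34 genes of the fixed lists that CD8-only droplets expressed at least 10 times as highly as macrophage-only droplets. Ifng, the interferon that activates macrophages, stood at 66.1, 96.0, 122 and 92.2 in mixed and 95.8, 99.8, 102 and 113 in CD8-only droplets, lower in 3 of 4 libraries. Gzmb, the granzyme that starts death in target cells, stood at 41.4, 37.1, 115 and 200.2 in mixed and 63.9, 40.3, 142 and 231 in CD8-only droplets, lower in each library. Nkg7, a protein of cytotoxic granules, and Gzmf were also lower in each library. Gzmf stood at 69.6, 75.3, 46.7 and 83.1 in mixed and 138, 85.3, 60.8 and 222 in CD8-only droplets. Gzma varied most, at 13.3, 19.4, 77.2 and 656 against 29.5, 5.33, 72.5 and 501, higher in 3 of 4 libraries. Over 12 cytotoxic genes the median log2 ratio was -0.17. Prf1, which encodes perforin, stood at 64.8, 67.3, 82.0 and 81.0 in mixed and 77.9, 65.2, 92.1 and 106 in CD8-only droplets. It was higher in 1 of 4 libraries.

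Receptors that restrain T cells differed little between the kinds. Pdcd1, encoding PD-1, stood at 33.5, 47.6, 33.3 and 26.1 per 1000 in mixed and 36.6, 48.8, 40.6 and 36.0 in CD8-only droplets, a little lower in each library. Tox, a factor of exhausted T cells, stood at 44.9, 59.6, 40.9 and 22.3 in mixed and 35.7, 55.7, 40.8 and 21.1 in CD8-only droplets, a little higher in each. The median over 8 genes of this list was -0.01. The T cell genes with the largest mean ratios, Lef1 and Satb1, belonged to the naive and memory list. Only 3 genes of that list were among the 34. The third, Ltb, had a mean log2 ratio of 0.37 and was not higher in LNP-Sirpa 1. Lef1, a factor of naive T cells, stood at 28.5, 4.15, 11.2 and 10.5 in mixed and 6.24, 2.43, 7.55 and 5.98 in CD8-only droplets, and Satb1 at 60.6, 21.3, 28.5 and 29.0 against 19.4, 13.2, 21.9 and 20.3. Both were higher in all 4 libraries, and their level in macrophage-only droplets was 7.22% and 9.15% of that in CD8-only droplets. Their log2 ratios were 2.17 and 1.64 in control 1, which had the fewest droplets, and from 0.38 to 0.81 in the other libraries. Il2ra, a receptor chain for interleukin 2, and Icos, a costimulatory receptor, were also higher in all 4, with mean log2 ratios of 0.44 and 0.34. Over the 34 genes, 7 were higher and 5 lower in every library. These droplets were not separate samples and were chosen on their RNA, so no test was made.

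The macrophage side had slightly more transcripts of resident macrophages. Levels are UMIs per 1000 UMIs of the macrophage reference genes, for 35 genes that macrophage-only droplets expressed at least 3 times as highly as CD8-only droplets. Folr2, a folate receptor of resident macrophages, stood at 18.4, 11.6, 6.997 and 3.59 in mixed and 14.8, 8.85, 5.04 and 2.60 in macrophage-only droplets. Maf, a factor of the same cells, stood at 50.4, 33.8, 31.6 and 16.4 against 41.6, 32.4, 26.8 and 12.3. Both were higher in each library, as were Cbr2, Igf1 and F13a1, so 5 of 11 resident genes were higher in all 4 libraries and none was lower in all 4. Over all 35 macrophage genes, 8 were higher and 9 lower in every library. Engulfment genes leaned the other way, with a median log2 ratio of -0.12 over 9 genes. Stab1, a scavenger receptor, was slightly higher in each library (mean log2 ratio 0.08), while Itgb5, Itgam, Dock1 and Msr1 were lower in each. The latter encode integrin subunits that bind dying cells or complement, a regulator of engulfment and a scavenger receptor. Sirpa stood at 39.3, 32.2, 26.7 and 25.02 in mixed and 42.0, 36.0, 32.2 and 24.1 in macrophage-only droplets, lower in 3 of 4 libraries. Of 9 lysosomal genes, Lamp1, a membrane protein of lysosomes, was higher in each library (41.0, 40.5, 36.6 and 29.8 against 36.6, 33.5, 30.1 and 26.2), while Ctsl and Ctsh, which encode cathepsins, were lower in each. For these 35 genes the level in CD8-only droplets ran from 8.60% to 32.5% of that in macrophage-only droplets.

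**Figure D3:**
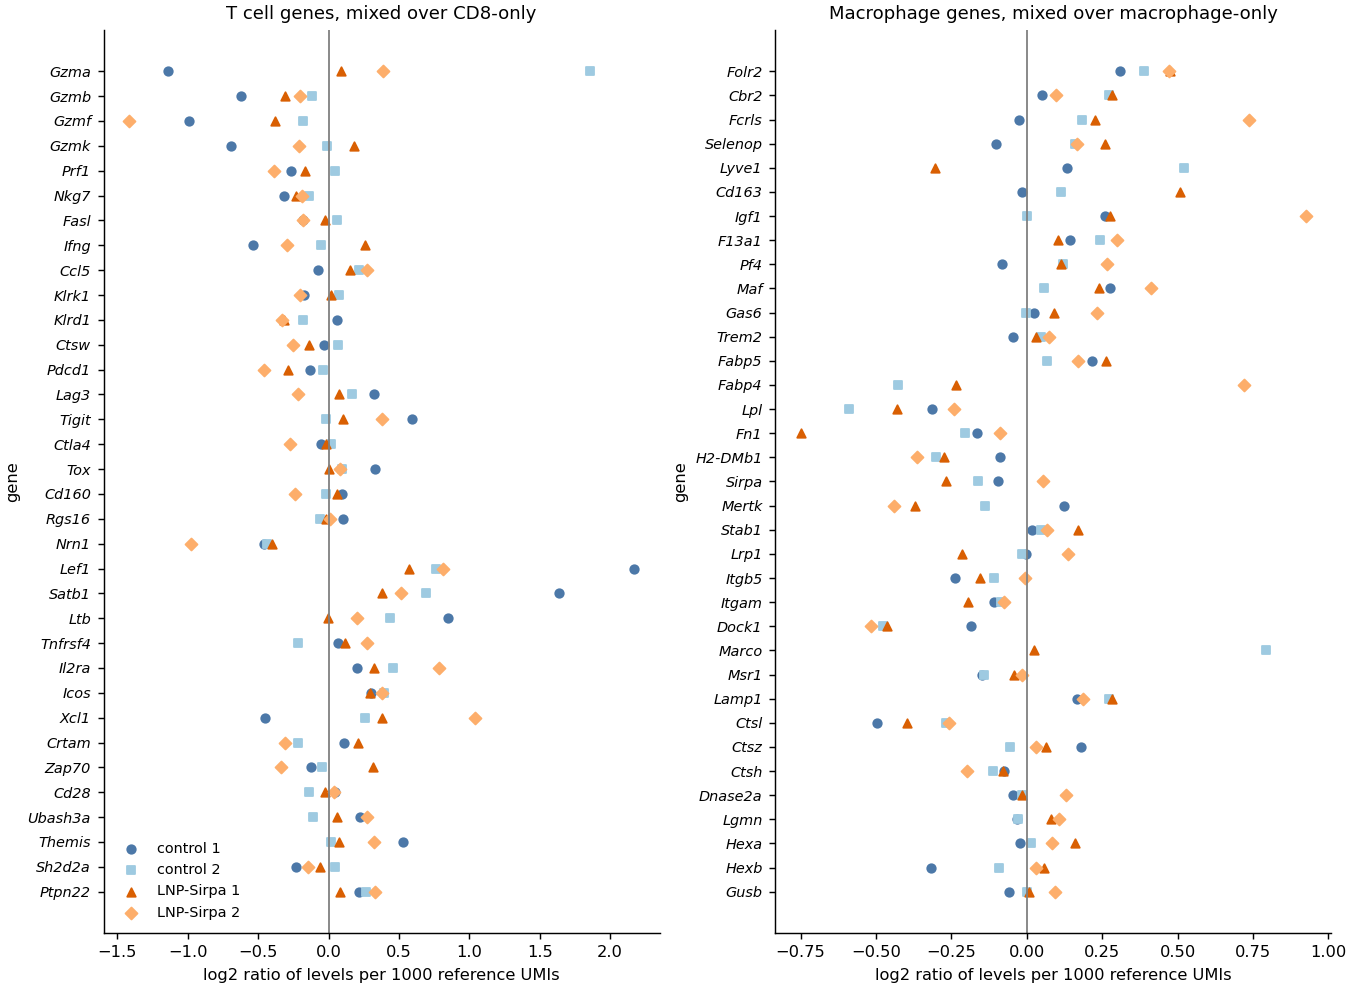
Log2 ratio of mixed over single-kind droplets (horizontal axis) for T cell genes per 1000 T cell reference UMIs (left, against CD8-only) and macrophage genes per 1000 macrophage reference UMIs (right, against macrophage-only). Each point is a library; points with under 10 UMIs of the gene in mixed droplets are left out. Lef1 and Satb1 lie right of 0 in each library, and most other genes lie on both sides of it.

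LNP-Sirpa was then compared with control within mixed droplets, on UMIs summed per library (2301021, 9691829, 10997154 and 3533590). The rule does not use the treatment, although its macrophage genes moved with it as given above. Of 12145 genes tested with edgeR's quasi-likelihood test, 26 (0.214%) passed an adjusted p of 0.05. Of these, 22 (0.181%) were higher and 4 (0.0329%) lower in the LNP-Sirpa libraries, and 1222 genes had an unadjusted p under 0.05. The higher genes included granzyme B of the T cell side, interferon-induced genes, and Nos2 and Acod1 of activated macrophages. The lower genes with the highest levels were F13a1 and Igfbp4. Changes are given on the log2 scale, LNP-Sirpa relative to control, with the SE. Leaving out control 1 or control 2 left 3 calls each, and of the 26 genes only Ly6i and Nos2 were among them both times. All 26 kept their direction whichever library was left out. Where the groups do not overlap, leaving out a library cannot reverse a direction, so this adds no support.

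Gzmb, the only gene of the cytotoxic list that passed, stood at 94.7, 102, 328 and 389 CPM. Both LNP-Sirpa libraries were above both controls (98.5 ± 5.38 against 358 ± 43.2 CPM; SD, n = 2), a rise of 1.94 ± 0.20 (adjusted p = 0.0175). Without control 1 or control 2 the adjusted p was 0.177 and 0.127. Gzmb also rose in CD8-only droplets, from 374 and 259 to 755 and 1038 CPM (1.56, adjusted p = 0.0205). Gzma, another granzyme, had 30.4, 53.6, 220.2 and 1274 CPM in mixed droplets, a large spread within the LNP-Sirpa group (4.24 ± 1.26, adjusted p = 0.463). Ifng stood at 151, 265, 349 and 179 CPM and did not pass (0.38 ± 0.37, adjusted p = 0.830). The LNP-Sirpa values lay on both sides of control 2. Pdcd1 stood at 76.5, 131, 94.9 and 50.7 CPM (-0.47 ± 0.35, adjusted p = 0.760), with overlapping groups. The rule's own Cd8a had 156, 185, 207 and 129 CPM and Cd3g 338, 423, 345 and 338 CPM.

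Interferon-induced genes were higher in both LNP-Sirpa libraries. Cxcl10, a chemokine that draws T cells, stood at 163, 154, 489 and 374 CPM, a rise of 1.51 ± 0.18 (adjusted p = 0.0280). The groups did not overlap, and the adjusted p was 0.268 without control 1 and 0.243 without control 2. Ifitm3, a membrane protein that blocks virus entry, stood at 472, 447, 1797 and 1292 CPM (1.82 ± 0.21, adjusted p = 0.0268). Samhd1, an enzyme that lowers the nucleotide pool, stood at 118, 116, 359 and 229.8 CPM (1.39 ± 0.20, adjusted p = 0.0446). For each of these genes the controls lay close together and both LNP-Sirpa libraries lay above them. Ifi205, an interferon-induced gene, stood at 9.56, 7.02, 48.9 and 24.9 CPM (2.31 ± 0.31, adjusted p = 0.0446). Ly6a, a surface protein that interferon induces on T cells, stood at 148, 136, 1489.6 and 1152 CPM. It had the smallest adjusted p, with Ly6i (3.29 ± 0.21, adjusted p = 7.68e-04). These calls, too, were lost without either control, with adjusted p from 0.0531 for Ly6a to 0.359 for Samhd1.

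Nos2 was the only gene of the inflammatory macrophage list that passed, and Acod1, outside that list, passed too. Nos2, which makes nitric oxide, stood at 2.17, 5.26, 65.2 and 72.7 CPM in mixed droplets, a rise of 4.03 ± 0.31 (adjusted p = 0.00550). The control values rest on 5 and 51 UMIs. Acod1, which makes itaconate, stood at 46.9, 73.4, 226 and 219 CPM (1.93 ± 0.24, adjusted p = 0.0290), and its adjusted p was 0.163 and 0.0600 without control 1 and control 2. With at least 3 Cd3 and 3 Cd8 UMIs required, Acod1 did not pass either (adjusted p = 0.142). Both genes had groups that did not overlap. Slco3a1, a transporter, stood at 28.2, 24.4, 97.7 and 55.8 CPM (1.63 ± 0.23, adjusted p = 0.0446). F13a1, coagulation factor XIII A of resident macrophages, stood at 511, 378, 156 and 141 CPM and fell (-1.50 ± 0.19, adjusted p = 0.0291). Igfbp4, which binds insulin-like growth factors, stood at 144, 101, 40.8 and 23.5 CPM and fell (-1.83 ± 0.25, adjusted p = 0.0446). Leaving out control 1 or control 2 ended the calls of Slco3a1, F13a1 and Igfbp4 too, with adjusted p between 0.106 and 0.326. Igfbp4 also missed the threshold when the macrophage reference genes chose the droplets (adjusted p = 0.0747). Mef2c (-0.96), Hgsnat (-1.09) and Stab1 (-1.23) were the next lower genes by p among those averaging at least 50 CPM, and did not pass (adjusted p from 0.0651 to 0.108).

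The other called genes, named after their values were seen, had a mean under 50 CPM or a predicted gene's name. The largest rises were those of Slfn4 (4.95), Flt1 (4.33), a receptor for vascular endothelial growth factor, and Ly6i (3.78). Smaller ones were those of Fpr2 (1.93), a receptor for formyl peptides on phagocytes, Slc7a11 (1.84), a cystine transporter, and Hk3 (1.28), a hexokinase of myeloid cells. Rapgef5 (-1.98) and Ltc4s (-1.92), the leukotriene C4 synthase, were the remaining falls.

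**Figure D4:**
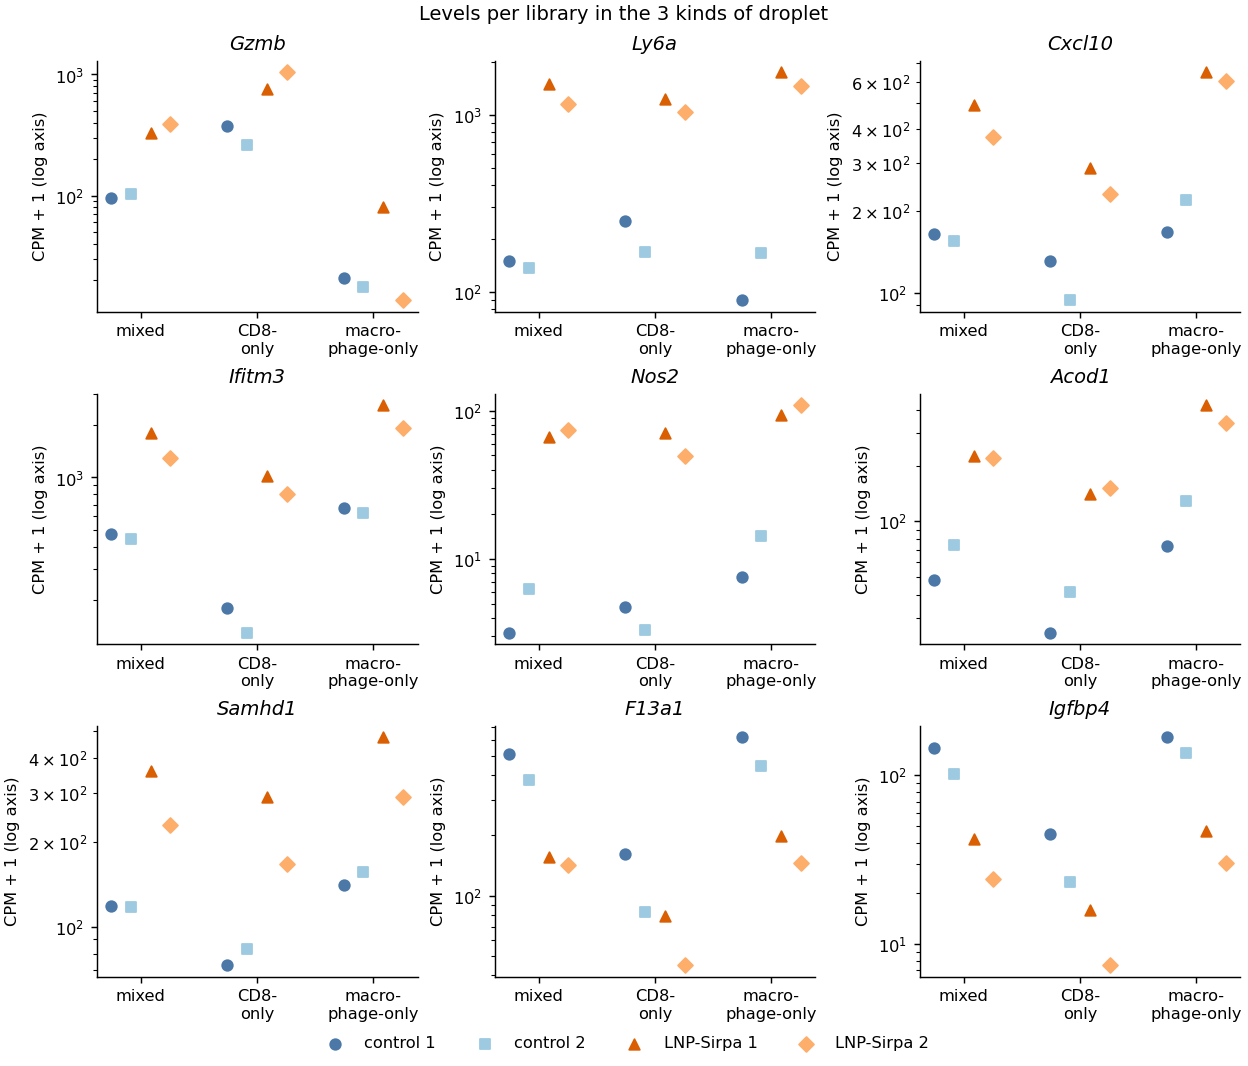
CPM plus 1 (log axis) of 9 genes that passed the test in mixed droplets, per library, in mixed, CD8-only and macrophage-only droplets. Each point is 1 library; in mixed droplets both LNP-Sirpa libraries lie above both controls for the first 7 genes and below them for F13a1 and Igfbp4.

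Cd47, the ligand of SIRPα, stood at 202, 198, 394 and 248 CPM in mixed droplets, with both LNP-Sirpa libraries above both controls, and did not pass (0.74 ± 0.20, adjusted p = 0.213). C1qa had 3438, 3709.9, 3683 and 3185 CPM and Lyz2 7101, 7563, 3662 and 5345 CPM. Both are among the rule's macrophage genes. The level of the first was alike in all libraries, while the second was lower in both LNP-Sirpa libraries.

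The gene lists show which groups leaned 1 way, read against a median log2 change of -0.00 over all 12145 genes, of which 6048 were positive. All 24 measured genes of the type I interferon response were higher on average with LNP-Sirpa, with a median of 2.25, and 1 (Ifi205) passed. Their summed level was 927, 817, 5156 and 1932 CPM, so LNP-Sirpa 1 was far above LNP-Sirpa 2. Isg15, a ubiquitin-like protein, shows this spread with 122, 121, 1076 and 365 CPM (2.60 ± 0.48, adjusted p = 0.172). All 20 tested genes of the interferon gamma response were positive with a median of 1.21, and Cxcl10 passed. Cxcl9, the chemokine most tied to interferon gamma, had 96.5, 627, 2314 and 1671 CPM (2.496 ± 1.06, adjusted p = 0.603), with control 1 far below control 2. All 15 genes of MHC class I presentation were positive with a median of 0.64 and none passed. B2m, the light chain of MHC class I, had 2010.4, 1997, 2700.0 and 2611 CPM (0.49 ± 0.20, adjusted p = 0.458).

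All 12 resident macrophage genes were negative, with a median of -1.46, and F13a1 passed. Their summed level was 4283, 3700.4, 2327 and 1955 CPM. Of 14 inflammatory macrophage genes 12 were positive, with a median of 1.21, and Nos2 passed. Their summed level was 3507, 3808, 3875 and 9068 CPM, so LNP-Sirpa 2 alone stood well above the controls. Arg1, arginase, had 565, 814, 1322 and 4176 CPM (2.11 ± 0.70, adjusted p = 0.447). Engulfment genes had a median of -0.12 over 18 tested and lysosomal genes 0.01 over 18, and none of either passed. On the T cell side, the medians were 0.29 for 15 cytotoxic genes (Gzmb passed), -0.01 for 12 inhibitory receptor genes, 0.04 for 16 activation genes and 0.01 for 14 receptor signalling genes. The cell cycle list had a median of -0.03 over 22 genes. The monocyte list had a median of 0.62 over 10 genes (Ly6a passed), MHC class II presentation 0.52 over 10, lipid-associated macrophages 0.49 over 11, naive and memory T cells -0.34 over 12, adhesion and costimulation 0.14 over 19, and death and stress 0.01 over 15. No other gene of these lists passed. Both reference lists, which mark the amounts of the 2 kinds of RNA, had medians of 0.16 (T cell) and 0.02 (macrophage).

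Markers of further cell types were uneven in mixed droplets. The 8 neutrophil markers summed to 396, 27.8, 495 and 69.9 CPM, high in 1 library of each group, and none was at 0 in all libraries. They summed to 44.0, 108, 618 and 506 CPM in CD8-only and 68.8, 63.2, 824 and 243 CPM in macrophage-only droplets. Mixed droplets were thus the highest kind in control 1 and the lowest in the other libraries. The 8 NK markers summed to 169, 154, 352 and 1356 CPM, of which Gzma, also a gene of CD8 T cells, was 1274 CPM in LNP-Sirpa 2. The 9 dendritic markers summed to 182, 56.0, 77.2 and 25.8 CPM and the 8 B cell markers to 52.6, 65.4, 51.0 and 11.3 CPM. The 9 fibroblast and tumour markers summed to 66.5, 82.4, 80.5 and 14.4 CPM, with Krt8 and Krt19 at 0 in all 4 libraries. The 7 CD4 and regulatory T cell markers summed to 400.3, 375, 469.7 and 318 CPM. In CD8-only droplets they summed to 969, 786, 736 and 577 CPM. The part of these further cell types in the changes above was not tested.

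The same comparison gave 132 of 11173 genes (1.18%) in CD8-only droplets and 5 of 15052 (0.0332%) in macrophage-only droplets. Whether a change differed between kinds of droplet was tested as an interaction over the sums of the same libraries. Against CD8-only droplets the change differed for 26 of 11976 genes (0.217%), 3 more positive and 23 more negative in mixed droplets. AW112010, an interferon-inducible transcript of immune cells, stood at 426, 682, 1427 and 1059 CPM in mixed and 1144, 1393, 1721 and 1412 CPM in CD8-only droplets. Its change was larger in mixed droplets by 0.92 ± 0.12 (adjusted p = 0.0105). Ccl2, a chemokine for monocytes, stood at 671, 420.3, 434 and 474 CPM in mixed and 162, 84.0, 187 and 272 CPM in CD8-only droplets, an interaction of -1.14 ± 0.16 (adjusted p = 0.0105). Ier3 (-1.14), H2-Aa (-0.74) and Ifitm3 (-0.82) also had a more positive change in CD8-only than in mixed droplets. The part in this of CD8-only droplets near the threshold, which held more macrophage RNA in the LNP-Sirpa libraries, was not tested directly. When the 14 macrophage reference genes at 50 per 10000 defined the kinds, none of 11955 genes passed with edgeR, 722 had an unadjusted p under 0.05, and only 15 of the 26 kept their direction. With the rule's macrophage genes at 200 per 10000, 16 genes passed, of which AW112010, Ly6a, Pde7b and Serpina3g were among the 26, and Ier3, Ccl2, H2-Aa and Ifitm3 did not pass (adjusted p = 1 for each).

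Against macrophage-only droplets the change differed for 66 of 14290 genes (0.462%), 12 more positive and 54 more negative in mixed droplets. The 54 included the T cell genes Klrk1, Grap2, Tnfrsf9, Pdcd1, Trac, Cd6 and Tox. Interferon-induced genes were among them too, namely Ifit1 (-0.94, adjusted p = 0.00194), Rsad2 (-0.73, adjusted p = 0.00402), Ifit2 and Isg15. Isg15 had an interaction of -0.54 (adjusted p = 0.0256). Isg15 and Rsad2 rose in mixed droplets (2.60 and 2.42), less than in macrophage-only droplets. Over the type I interferon list the median change was 2.25 in mixed and 2.58 in macrophage-only droplets. Klrk1, encoding the receptor NKG2D, stood at 107, 108, 105 and 58.0 CPM in mixed and 9.28, 10.8, 39.8 and 16.4 CPM in macrophage-only droplets. The interaction was -1.94 ± 0.15 (adjusted p = 4.92e-08). In the former LNP-Sirpa 1 was close to the controls and LNP-Sirpa 2 was lower, and in the latter both LNP-Sirpa libraries were higher. Grap2, an adaptor of T cell receptor signalling, stood at 161, 147, 154 and 103 CPM in mixed and 10.8, 14.2, 32.5 and 19.7 CPM in macrophage-only droplets (-1.40, adjusted p = 1.02e-05). Tnfrsf9, the costimulatory receptor 4-1BB, stood at 243, 293, 345 and 249 CPM in mixed and 43.8, 57.1, 115 and 98.4 CPM in macrophage-only droplets (-1.05, adjusted p = 2.47e-05). Macrophage-only droplets have no UMI of Cd3 or Cd8 by their definition, and their T cell reference genes summed to 103, 126, 298 and 77.4 CPM, high in LNP-Sirpa 1 alone. Pdcd1 had an interaction of -1.35 (adjusted p = 8.07e-04) with at most 4.84 CPM in macrophage-only droplets. AW112010 changed less in mixed than in macrophage-only droplets (-1.32, adjusted p = 1.02e-05), whose levels were 150.3, 327, 1339 and 1046 CPM. Cma1, a mast cell protease, had an interaction of 2.88 (adjusted p = 1.45e-06), but its level was 14.3, 5.98, 181 and 2.55 CPM in mixed and 33.7, 26.0, 78.7 and 1.57 CPM in macrophage-only droplets, highest in LNP-Sirpa 1 in both. It did not pass at 200 per 10000 (adjusted p = 1) or with the macrophage reference genes (adjusted p = 0.858). Tpsb2, Cpa3, Mcpt4 and Fcer1a, further mast cell genes, were among the 12 as well. Mast cell markers were not among the lists, and the part of mast cells was not tested.

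**Figure D5:**
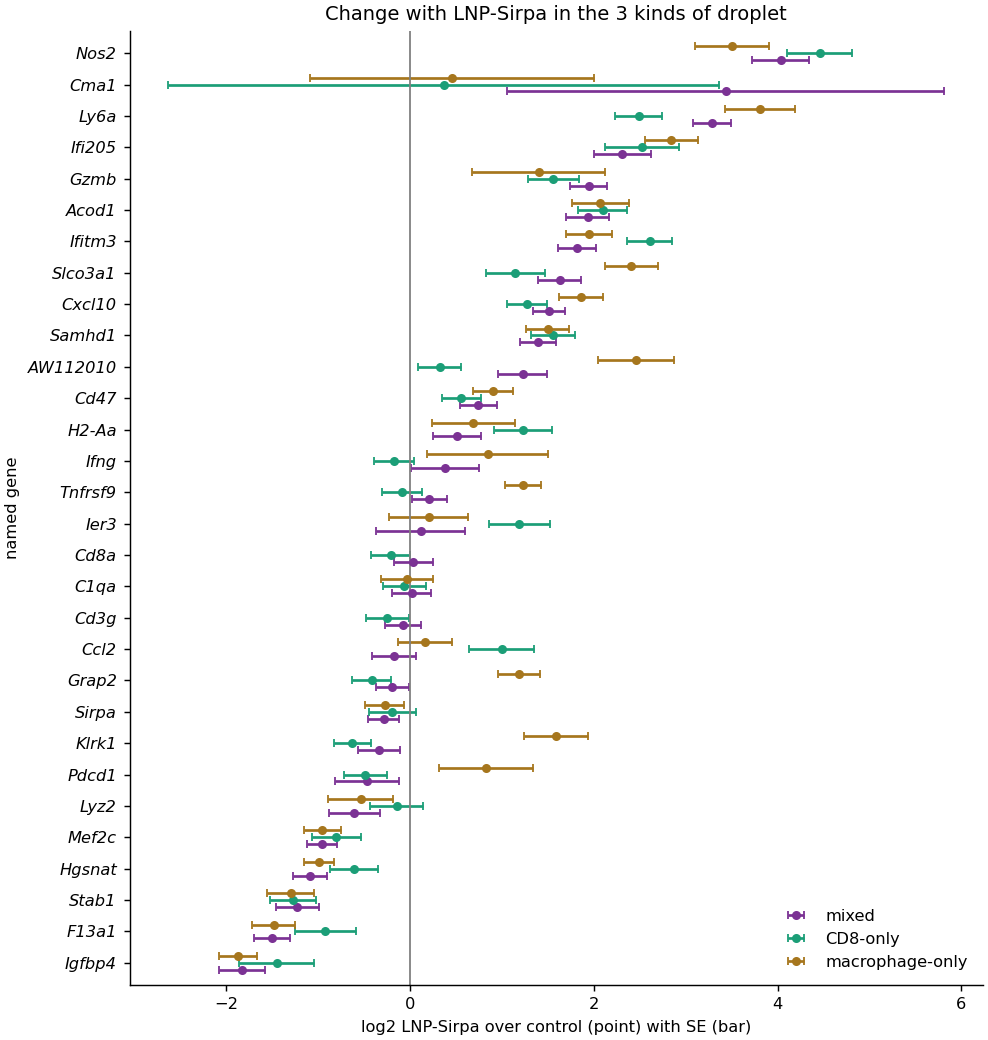
Log2 change of LNP-Sirpa over control (horizontal axis, points with SE bars from edgeR on 2 libraries a group) for the 30 named genes in mixed, CD8-only and macrophage-only droplets. Cd8a and Cd3g have no value in macrophage-only droplets, which lack them by definition; AW112010 lies between the single kinds, and Klrk1, Grap2 and Tnfrsf9 lie near CD8-only droplets.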

How the data were processed

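The authors deposited UMI counts, one matrix per library, which PISA 1.0 wrote per the file headers. The submitters' processing notes name STAR 2.5.1b and GRCm39. How cells were called, and which annotation was used, is not given in the sources used here. The oligo libraries were not analysed here. Genes absent from a library's list were set to 0. No doublet caller was run, since mixed droplets are the subject.

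Counts were summed per library and kind of droplet (Python 3.11.15, numpy 2.4.6, scipy 1.17.1, pandas 2.3.3, matplotlib 3.10.9) and tested in R 4.3.3 with edgeR 4.0.16 (TMM, filterByExpr, robust quasi-likelihood fit), with Benjamini-Hochberg adjustment over all genes tested and a threshold of 0.05; interactions had the library as a block. The script was tested on simulated data. Alternatives were DESeq2 1.42.0, its size factors, no filter on low counts, other thresholds, a cell filter (500 UMIs, 300 genes, at most 15% mitochondrial), thinning and each library left out.

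Mixed droplets, the 26 gene lists and tests were chosen with earlier results of these data known. Named genes were the 6 markers, Sirpa and Cd47, the 10 largest called rises and falls among genes averaging 50 CPM or more (the 5 of smallest p where fewer than 5 passed), up to 3 passing members per list, and the 5 interaction genes of smallest p in each contrast, 30 in all, besides the 10 genes highest above both single kinds, which were only described; this excluded predicted genes, antigen receptor segments, and ribosomal or mitochondrial genes. Other genes in the text were chosen after their values were seen.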

Additional observations from a re-analysis of the deposited data

Results flagged for a closer look

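These genes differed between kinds of droplet in their change with LNP-Sirpa, by edgeR's test of the interaction (log2 difference of changes, mixed minus single kind; 2 libraries a group). Against CD8-only droplets they were AW112010 at 0.92 (adjusted p = 0.0105), Ier3 at -1.14, Ccl2 at -1.14 and H2-Aa at -0.74 (adjusted p = 0.0105 for each) and Ifitm3 at -0.82 (adjusted p = 0.0171). Ier3, an early stress response gene, had 272, 416, 223 and 473 CPM in mixed and 118, 134, 199 and 360.1 CPM in CD8-only droplets of control 1, control 2, LNP-Sirpa 1 and LNP-Sirpa 2. H2-Aa, a chain of MHC class II, had 1510.2, 2400.3, 2740.2 and 2567 CPM in mixed and 393, 752, 1261 and 1387 CPM in CD8-only droplets. Ifitm3 had 179, 128, 1015 and 803 CPM in CD8-only droplets. None of the 5 passed when the macrophage reference genes defined the droplets.

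Against macrophage-only droplets they were Klrk1 at -1.94 (adjusted p = 4.92e-08), Cma1 at 2.88 (adjusted p = 1.45e-06), Grap2 at -1.40 (adjusted p = 1.02e-05), AW112010 at -1.32 (adjusted p = 1.02e-05) and Tnfrsf9 at -1.05 (adjusted p = 2.47e-05).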

How the results depend on the processing

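With 2 libraries a group, 1 library can make or end a call, and summed counts mix both kinds of RNA, so a change of the blend and of a cell cannot be told apart. The mixed share of droplets with Cd3 and Cd8 differed by -0.69 points at 500 per 10000, where the shares were only 0%, 1.44%, 0.07% and 0%. After thinning it differed by -15.0 points (mean 28.8% in control and 13.9% in LNP-Sirpa). With the macrophage reference genes it differed by -11.7 (59.8% and 48.2%). Under the other rules given above it differed by -25.3 to -22.1, and with each library left out by -30.9 to -18.9. The share of all barcodes turned to -0.92 at 200 and -0.0594 at 500 per 10000, and ran from -1.52 to 2.26 with a library left out. Genes changed in mixed droplets numbered 580 with no filter on low counts, 185 with DESeq2, 89 at 200 per 10000, 55 with 3 and 3 T cell UMIs, and 3 to 596 with a library left out. With the replicate number as a block (replicate block) they numbered 127, all 26 among them; same-numbered libraries deviated together with a correlation of 0.0352 over 2903 genes and the labels do not pair them. Genes whose change differed from CD8-only droplets numbered 158 with no filter, 16 at 200 per 10000, 67 with 3 and 3 T cell UMIs, 0 with the macrophage reference genes and 66 to 137 with a library left out. Against macrophage-only droplets they numbered 137 with no filter, 41 with DESeq2, 39 at 200 per 10000, 138 with the macrophage reference genes and 96 to 218 with a library left out. Of the named genes' interactions, Ifitm3 turned to 0.0893 and Cma1 to -0.23 at 200 per 10000, and Ccl2 to 0.0771 and H2-Aa to 0.18 with the macrophage reference genes. The causes were not tested. Of the 11 named genes that passed in mixed droplets, only Nos2 still passed without control 1 and without control 2.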
